A study of Mus musculus with 6 samples.

Results

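Of the 931 small RNAs listed for GC-2 spd(ts) cells, 205 carried no miRBase-style name. They were chosen by their ID, which in place of a name starting with mmu- holds a chromosome and a running number, such as 11_16688, and the rule uses no read number. The other 726 entries had mmu- names. GC-2 spd(ts) is an immortalised line derived from mouse spermatocytes, which are meiotic male germ cells, and its p53 is temperature-sensitive. After 12 h of serum starvation, the cells of one culture received 120 µM bisphenol A (BPA), a plastic monomer dissolved in dimethyl sulfoxide, for 48 h in medium containing 10% serum. The control culture received 0.1% dimethyl sulfoxide alone for the same time. Each group had 1 small RNA library made from part of the RNA of 1 culture, so no difference between BPA and control has a replicate check and no p-value was computed.

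MicroRNAs (miRNAs) are cut from hairpin-shaped precursors by Drosha in the nucleus and by Dicer in the cytoplasm. One strand of the resulting duplex is loaded into an Argonaute protein and pairs with target mRNAs through its seed, while the other, long called the star strand, is mostly degraded. Programs that search small RNA reads for unannotated miRNAs look for stacks of reads that fit such a hairpin, and some of them name each candidate by a chromosome and a running number and its other strand by the ending star. Which program made these entries is not stated in the labels, and their sequences and positions were not analysed here. None of the 205 can therefore be given a seed, a target or a host gene, and nothing measured here shows that any is cut by Dicer.

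The 931 entries held 3452574 reads in the BPA library and 3927981 in the control library. Library totals and shares below are of these listed reads. A single named miRNA, miR-148a-3p, took 35.2% of the BPA reads and 70.5% of the control reads. It comes from Mir148a on chromosome 6 (51269829 to 51269850, minus strand, GRCm38.p6, from RefSeq), and its sequence is shown because its share weighs on every value scaled by library totals, with the seed, bases 2 to 8, in capitals.
miR-148a-3p: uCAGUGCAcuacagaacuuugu
Scaled by all reads, as CPM (reads scaled by the library total), an entry is equal in both libraries when it has 0.879 BPA reads per control read. With miR-148a-3p left out of the totals that value is 1.93, and with TMM (trimmed mean of M-values), which aligns the bulk of the entries, it is 2.82. Log2 ratios below are BPA over control after TMM scaling. CPM adds 1.68 to each where reads are many. It adds less where they are few, because of the reads added before a ratio is taken. For example, 13_19007, with 0 BPA and 11 control reads, moved from -5.43 to -4.44. The TMM ratios therefore say how an entry stood relative to most other small RNAs, and with each ratio the reads themselves are given. Of miRNAs known from male germ cells, miR-34c-5p had 1997 reads in the BPA library and 586 in control, and miR-34b-3p had 63 and 6. Of the others, miR-449a-5p had 1 read in each, miR-741-3p had 5 in BPA and 0 in control, and miR-449c-5p was not listed.

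The unnamed entries were sparse. Together they held 7652 reads in the BPA library and 3013 in control. That is 0.222% of the listed BPA reads (exact binomial 95% interval 0.217 to 0.227) and 0.0767% of the listed control reads (0.0740 to 0.0795). Their median was 5 reads over both libraries, against 15 for the entries with mmu- names. Among the unnamed, 61 entries, 29.8%, reached 10 reads over both libraries, 11 reached 100 and the top 2, 3_4438 and 11_16688, had 4621 and 1165. Among the named, 55.5% reached 10 reads and 229 reached 100. All intervals given here cover counting error alone, because each group had 1 library. PCR copies of a molecule were not told apart by identifiers, so the intervals are those of reads and may be too narrow for molecules.

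**Figure D1:**
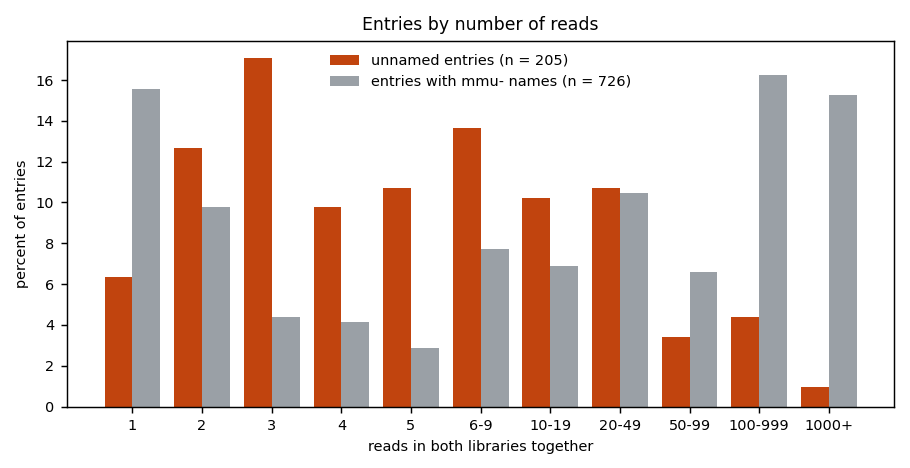
Share of entries, in percent, by the number of reads in both libraries together, for 205 unnamed entries (orange) and 726 entries with mmu- names (grey). Unnamed entries gather at low counts, with 17.1% of them at exactly 3 reads, and 11 of them reach 100.

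Of the 205, 172 were seen in the BPA library and 142 in the control library. Both libraries held 109 of them, 63 (30.7%) were seen in BPA alone and 33 (16.1%) in control alone. The shares among named entries were 28.0% in BPA alone and 5.65% in control alone. Entries seen in 1 library were faint, with a median of 3 reads in either case. A count of 0 allows up to 0.869 CPM in the BPA library and 0.764 CPM in the control library, and differences of 3 reads against 0 were not detectable at this depth. The BPA-only entry with the most reads was 4_5423 with 20, followed by 7_10482 with 16, 1_895 with 9, 19_24973 with 8 and 16_21227 with 7. The control-only entries with the most reads were 13_19007 with 11, 8_11109 with 9, 16_21060 with 8, 8_11363 with 7 and 13_18469 with 5.

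**Figure D2:**
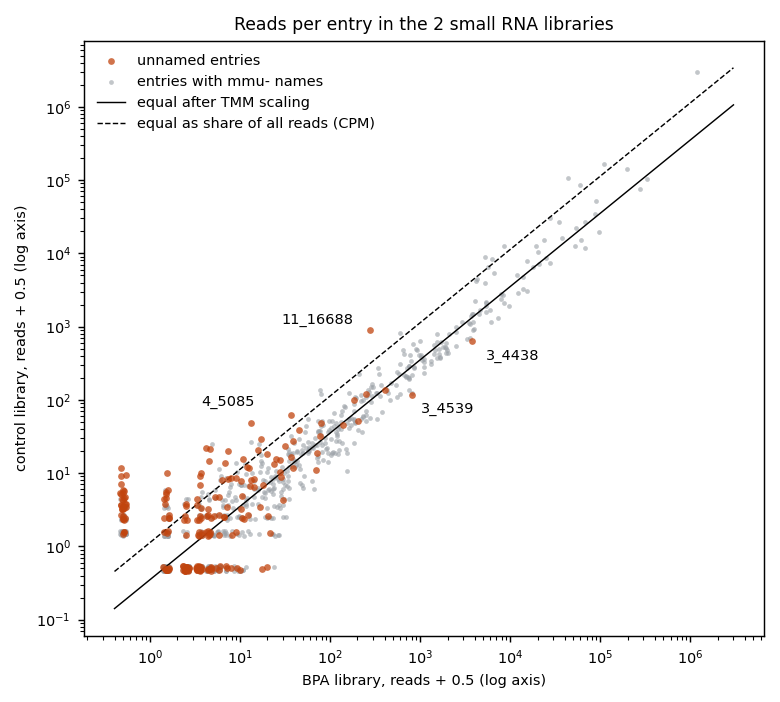
Reads of each entry in the BPA library (x axis) and in the control library (y axis), both with 0.5 reads added, on log axes with small random offsets to part equal counts. The solid line marks equality after TMM scaling and the dashed line equality by share of all reads. The unnamed entries 3_4438 and 3_4539 lie on the BPA side of both lines, and 11_16688 and 4_5085 on the control side of both.

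Few entries carried most of the reads. The 10 with the most reads held 83.8% of the unnamed reads in the BPA library and 70.9% in control. The most abundant, 3_4438, had 4009 reads in the BPA library and 612 in control. That is 1161 CPM in BPA (interval 1126 to 1198) and 156 CPM in control (144 to 169), which placed it 55th among all 931 entries in the BPA library and 75th in control.

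The entry 3_4438 was 2.32-fold higher in BPA, a log2 ratio of 1.22 (95% counting interval 1.09 to 1.34). A second entry with the same prefix, 3_4539, had 759 reads in BPA and 119 in control, a log2 ratio of 1.18 (0.90 to 1.47). Reads of 3_4438 per read of 3_4539 were 5.28 in BPA and 5.14 in control, so the 2 entries kept nearly the same proportion in both libraries. Whether they share a sequence or a precursor was not tested, and reads that fit both could be divided between them. Under CPM they were at 2.90 for 3_4438 and 2.85 for 3_4539. An entry higher after TMM scaling is always higher under CPM too.

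The entry 11_16688 lay the other way, with 290 reads in the BPA library and 875 in control, or 84.0 CPM in BPA (74.6 to 94.2) and 223 CPM in control (208 to 238). It was 8.49-fold lower in BPA after TMM scaling, a log2 ratio of -3.09 (-3.29 to -2.90), and -1.41 under CPM. In rank among all entries it stood 143rd in BPA and 65th in control, where no other unnamed entry had more reads. The authors' deposited table gave it an adjusted p of 0.0473 by a test that the labels and headers do not name, with 1 library on each side. It was the only one of all 931 entries under 0.05 in that table, a background of 0.107%.

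These 3 entries changed the make-up of the unnamed reads, a comparison that no scaling of the libraries touches. The pair 3_4438 and 3_4539 made up 62.3% of the unnamed reads in BPA (interval 61.2 to 63.4) and 24.3% in control (22.7 to 25.8). The entry 11_16688 made up 3.79% in BPA (3.37 to 4.24) and 29.0% in control (27.4 to 30.7). Per read of 11_16688 there were 13.8 reads of 3_4438 in BPA and 0.699 in control. Without these 3 entries, the remaining 202 held 2594 reads in BPA and 1407 in control. Their summed log2 ratio was then -0.61 (-0.71 to -0.52), against -0.15 (-0.21 to -0.09) for all 205, and it was 1.07 under CPM for the 202.

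The other abundant entries differed less. The entry 5_7857 had 400 reads in BPA and 141 in control, a log2 ratio of 0.01 (-0.27 to 0.30). The entry 1_595 had 267 reads in BPA and 114 in control and was at -0.27 (-0.59 to 0.06), and 11_16550, with 82 in BPA and 34 in control, was at -0.22 (-0.82 to 0.40). After TMM scaling these 3 intervals include equality, with bounds that leave out a 2-fold change in either direction. Under CPM all 3 were over 2-fold higher in BPA with intervals excluding equality, 5_7857 at 1.69 (1.41 to 1.98), 1_595 at 1.41 (1.09 to 1.74) and 11_16550 at 1.44 (0.86 to 2.08).

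Among the entries within 2-fold, 5_6892 was the highest of the abundant ones, with 203 reads in BPA and 48 in control (0.58, interval 0.12 to 1.07). The entry 14_19182 had 144 reads in BPA and 42 in control (0.28, -0.22 to 0.81). On the lower side, 4_6517 had 184 reads in BPA and 108 in control (-0.73, -1.08 to -0.37). Its interval excluded equality, as did that of 13_18726_star with 76 reads in BPA and 44 in control (-0.70, -1.26 to -0.14). Under CPM all 4 were higher in BPA.

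Ratios were compared for the 61 unnamed entries with at least 10 reads over both libraries. At least 2-fold higher in BPA were 8 of them (13.1%), where 13.1% of all 464 entries compared were. At least 2-fold lower were 26 (42.6%), where 14.7% of all 464 were and 10.4% of the 403 named ones. The remaining 27 lay within 2-fold. The share of higher entries was thus that of the background, and the share of lower entries was above it. The median log2 ratio of the 61 was -0.70, against 0.10 for the named entries and 0.03 for all 464, and their middle 50% ran from -1.60 to 0.25. The median changes sign with the scaling and was 0.97 under CPM, where that of the named entries was 1.75. A change of scaling moves both medians nearly alike, so their order says nothing on the choice of scaling. Under CPM, 29 of the 61 were higher and 10 lower, where 77.8% of all entries were higher and 2.80% lower.

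The share of lower entries among the unnamed was above that among the named in each class of read number. With 10 to 19 reads over both libraries, 11 of 21 unnamed entries and 9 of 50 named ones were at least 2-fold lower. With 20 to 49 reads the counts were 9 of 22 unnamed and 9 of 76 named, and with 50 to 99 reads 4 of 7 unnamed and 2 of 48 named. At 100 reads or more they were 2 of 11 unnamed and 22 of 229 named. The unnamed medians in these 4 classes were -1.07, -0.76, -1.05 and -0.22, and the named ones 0.02, 0.33, -0.08 and 0.09. The 144 unnamed entries under 10 reads held 337 reads in BPA and 226 in control, a summed log2 ratio of -0.92 (-1.17 to -0.67).

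The filter on reads bears on these counts, since an entry seen in 1 library passes only when it is far from equality. Of the 61, 1 was at 0 in BPA and 2 were at 0 in control. Just inside the filter were 6_9113 with 7 reads in BPA and 3 in control, 13_18224 with 1 and 10, and 13_19007 with 0 and 11. Just outside were 11_15314 with 8 reads in BPA and 1 in control, 1_895 with 9 and 0, and 6_9186 with 3 and 6.

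**Figure D3:**
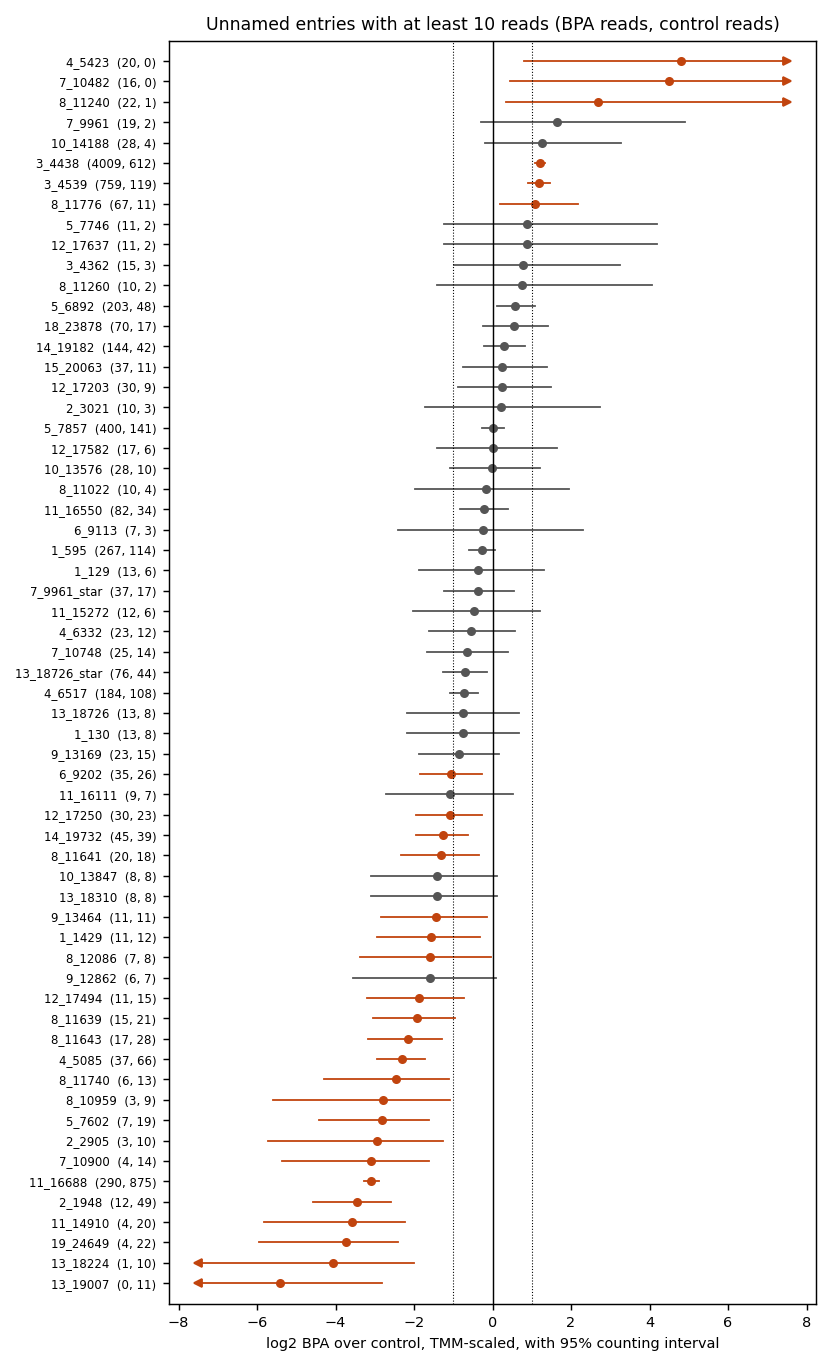
Log2 ratio of BPA over control after TMM scaling (x axis) of the 61 unnamed entries with at least 10 reads, with exact 95% counting intervals, and the BPA and control reads beside each ID. Orange marks entries at least 2-fold apart whose interval excludes equality, 6 higher and 22 lower, dotted lines mark 2-fold and arrows mark intervals that run on.

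The counting interval excluded equality for 22 of the 26 lower entries. Over all 464 entries that held for 12.7%, and over the named ones for 9.18%. Their log2 ratios ran from -5.43 to -1.05, and apart from 11_16688 none had more than 66 control reads. In 17 of the 22 the control library also held more reads as counted. The number depends on the scaling. Under CPM the interval excluded equality for 6 lower entries, against 1.94% of all 464, and for 24 higher ones, against 73.9% of all 464. In 10 unnamed entries the ratio was at least 2-fold lower under both TMM and CPM.

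The lower entry with the most reads after 11_16688 was 4_5085, with 37 reads in BPA and 66 in control and a log2 ratio of -2.31 (-2.95 to -1.73). Under CPM it was at -0.64, within 2-fold, and lower in BPA by both scalings. The entry 2_1948 had 12 reads in BPA and 49 in control (-3.45, interval -4.57 to -2.59), and -1.80 under CPM. It was lower by at least 2-fold under both.

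Fainter lower entries were 19_24649 with 4 reads in BPA and 22 in control (-3.73, -5.95 to -2.40), 11_14910 with 4 and 20 (-3.59, -5.83 to -2.24) and 7_10900 with 4 and 14 (-3.09, -5.36 to -1.63). The entry 13_18224, with 1 read in BPA and 10 in control, was at -4.06, with an interval that began at -10.26 and left out equality. For 13_19007, with 0 in BPA and 11 in control, 3 counts in place of 0 made it at least 10.3-fold lower if its 11 reads are taken as exact. With the counting error of both libraries its interval ended at -2.82, a smaller change. With 3 to 7 BPA reads and 9 to 19 control reads there were also 5_7602 at -2.81, 2_2905 at -2.95 and 8_10959 at -2.81. With so few reads their intervals span several log2 units, and all 8 lay at least 2-fold lower under both scalings. Under CPM, however, the intervals of 5_7602, 7_10900, 2_2905 and 8_10959 included equality.

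The counting interval excluded equality for 6 of the 8 higher entries, which held for 7.76% of all 464 and 7.44% of the named. Besides 3_4438 and 3_4539 they were 8_11776, with 67 reads in BPA and 11 in control (1.09, interval 0.18 to 2.18), and 8_11240, with 22 in BPA and 1 in control (2.68, 0.33 to 8.33). The other 2 were seen in BPA alone. With 3 counts in place of 0 and the BPA reads taken as exact, 4_5423 with its 20 reads was at least 2.36-fold higher. On the same terms 7_10482 with 16 reads was at least 1.89-fold higher, so it counts as 2-fold only by the ratio with reads added. With the counting error of both libraries their log2 intervals began lower, at 0.81 for 4_5423 and 0.45 for 7_10482. The 8 were higher under both TMM and CPM, as any entry higher after TMM scaling must be under CPM. They rest on unequal read numbers, since 3_4539 held 878 reads over both libraries and the 4 besides 3_4438 and 3_4539 held 78 or fewer.

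The authors' deposited table gave 11 unnamed entries an unadjusted p under 0.05, of 21 in all 931 entries, a background of 2.26%. The direction of the 10 with mmu- names is not given here, and the authors' values were lower in BPA for all 11 unnamed ones. Besides 11_16688 they were 2_1948 at 0.00149, 19_24649 at 0.00860, 13_19007 at 0.00943, 11_14910 at 0.0134, 4_5085 at 0.0149, 8_11109 at 0.0203, 16_21060 at 0.0300, 13_18224 at 0.0378, 8_11363 at 0.0444 and 5_7602 at 0.0461. The authors' deposited table gave 3_4438 a p of 0.0802 and 3_4539 a p of 0.0889. After the authors' adjustment 11_16688 alone remained under 0.05.

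Of the 205 entries, 21 had IDs ending in star, and 19 of these stood beside an entry with the same number and no such ending. The partners of 11_16410_star and 4_6165_star were not listed, so the 205 entries stood for 186 numbers. Both strands were listed for 19 of them, whereas 42.6% of the 444 named stems with an arm in their name had both the 5p and the 3p arm listed. Star entries were faint, with a median of 2 reads over both libraries, and 19 of the 21 had at most 5. They were seen in BPA alone in 15 cases, in control alone in 1 and in both in 5. Over all 931 entries, 28.6% were seen in BPA alone and 7.95% in control alone. Their median was 9 reads, so this background is not matched to entries as faint as the star ones. After TMM scaling an equal entry has 2.82 BPA reads per control read, so a faint one is more easily missed in control. The part of read number in the 15 cases was not tested. Together the 21 held 154 reads in BPA and 65 in control, and the 19 listed partners 310 in BPA and 156 in control. The star entries 13_18726_star and 7_9961_star were set aside after their values were seen. The other 19, each with at most 5 reads over both libraries, held 41 reads in BPA and 4 in control.

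**Figure D4:**
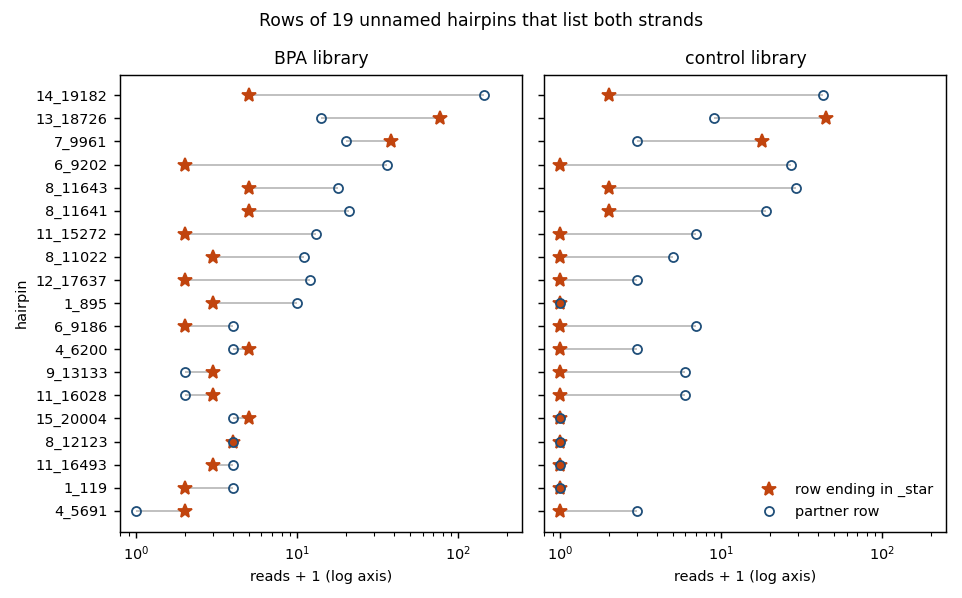
Reads plus 1, on a log axis, of the star entry (star) and its partner (circle) for 19 unnamed hairpins, in the BPA library (left) and the control library (right), ordered by reads in both libraries. The star entry exceeds its partner in 13_18726 and 7_9961 in both libraries and lies far below it in 14_19182.

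Over both libraries the star entry held a median of 25% of its pair's reads, from 1.61% in 6_9202 to 85.1% in 13_18726. Counted as the smaller of the pair, the median was 18.2% over the 19 unnamed pairs and 10.8% over 189 named arm pairs. At least 10 reads were held by 11 of these unnamed pairs and 162 of the named ones. A faint pair cannot have a small share in its lesser row, since each listed row has at least 1 read. The 2 medians were not compared at like read numbers. The abundant pair 14_19182 followed the usual asymmetry, with 144 partner reads in BPA and 42 in control against 4 star reads in BPA and 1 in control.

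In 3 pairs the star entry outnumbered its partner over both libraries. The entry 13_18726_star had 76 reads in BPA and 44 in control, where its partner had 13 in BPA and 8 in control. Its share of the pair was 85.4% in BPA (76.3 to 92.0) and 84.6% in control (71.9 to 93.1), with overlapping intervals. The entry 7_9961_star had 37 reads in BPA and 17 in control, and its partner 19 in BPA and 2 in control, a share of 66.1% in BPA (52.2 to 78.2) and 89.5% in control (66.9 to 98.7). The third, 15_20004_star, had 4 reads in BPA against 3 of its partner, and neither was seen in control. For 13_18726 and 7_9961 the ending star does not mark the less abundant strand, while the 7 reads of 15_20004 cannot show which strand is more abundant.

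In a few faint pairs the strands differed between libraries, and these were singled out after their values were seen. For both 11_16028 and 9_13133 the star entry had 2 reads in BPA and 0 in control, while the partner had 1 in BPA and 5 in control. For 4_5691 the star entry had 1 read in BPA and 0 in control, and the partner 0 in BPA and 2 in control. Counts of this size cannot show a change of strand.

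The prefixes covered chromosomes 1 to 19 and X, and none of the entries had the prefix Y. The running numbers ascended from prefix to prefix, from 98 for the lowest on chromosome 1 to 25631 on X. The prefix 11 was the most frequent, with 23 entries (11.2%), followed by 8 with 20 (9.76%), 4 with 19 (9.27%), 6 with 17 and 7 with 16. With a star entry and its partner counted once, the numbers were 20 on 11, 17 on 4, 16 on 8 and 15 each on 6 and 7. Prefixes 4, 8 and 11 were singled out after the counts were seen, so their excess over length follows from the choice. Together they held 30.2% of the entries on 15.5% of the length of these 20 chromosomes in GRCm38.p6. Over all of them there were 7.78 entries per 100 Mb, with 18.8 on 11, 15.5 on 8 and 12.1 on 4. The fewest were on 18, with 1 entry, and on X, with 3 entries or 1.75 per 100 Mb.

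**Figure D5:**
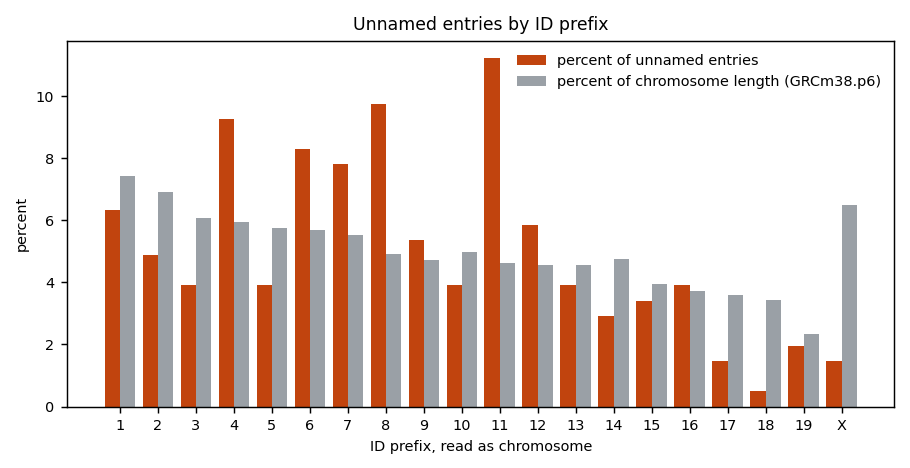
Percent of the 205 unnamed entries (orange) by the chromosome in their ID, beside the percent of the summed length of chromosomes 1 to 19 and X in GRCm38.p6 (grey). Prefix 11 reaches 11.2% of the entries on 4.64% of the length, and X 1.46% of the entries on 6.49% of the length.

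Named miRNAs were frequent on chromosome 11 as well, and also on X. Of the 726 named entries 597 were matched to RefSeq mature miRNAs, 571 of them on 1 chromosome, and 67 (11.7%) of these lay on 11 and 61 (10.7%) on X. On 8 lay 23 (4.03%) and on 4 lay 33 (5.78%). The prefixes are those of the IDs, and the position of an entry on its chromosome is not known from them.

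Reads and ratios were spread over the prefixes unevenly. Because of 3_4438 and 3_4539, prefix 3 held 62.6% of the unnamed reads in BPA and 24.6% in control from 8 entries. On prefix 11 there were 434 reads in BPA and 969 in control, most of the control reads from 11_16688. Prefix 8 had the most entries with at least 10 reads, 10, of which 6 were at least 2-fold lower and 2 higher. Prefixes 11 and 13 had 5 each, of which 3 were lower and none higher, and prefix 7 had 5, of which 1 was lower and 2 higher. Over all unnamed entries compared, 42.6% were lower and 13.1% higher. The 18 entry, 18_23878, had 70 reads in BPA and 17 in control (0.54, -0.23 to 1.40).

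Some entries carried neighbouring numbers, and the distance between them is not known from the IDs. There were 9 pairs with numbers 1 or 2 apart, from 16 entries. The run 8_11639, 8_11641 and 8_11643 was the most abundant, with 15, 20 and 17 reads in BPA and 21, 18 and 28 in control. Their log2 ratios were -1.93 (-3.04 to -0.96), -1.31 (-2.34 to -0.34) and -2.17 (-3.18 to -1.30). All 3 were at least 2-fold lower in BPA after TMM scaling with overlapping intervals. Under CPM all 3 lay within 2-fold with intervals that included equality, at -0.29, 0.33 and -0.52.

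The entries 1_129 and 1_130 had 13 reads each in BPA and 6 and 8 in control, at -0.36 (-1.88 to 1.30) and -0.76 (-2.18 to 0.68). The remaining neighbours were too faint to compare. X_25431 and X_25432 had 5 and 3 reads in BPA and 4 and 3 in control. In BPA alone were 3_3637 with 2 reads and 3_3638 with 5, and 7_10833 with 1 and 7_10834 with 2. In control alone were 9_12715 with 2 and 9_12716 with 3. The run 7_10162, 7_10164 and 7_10165 had 2, 0 and 2 reads in BPA and 2, 1 and 2 in control. In each of the first 4 of these sets the neighbours were seen in the same library or libraries.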

How the data were processed

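Small RNA libraries of BPA-treated and control GC-2 spd(ts) cells, 1 each, were compared, with groups taken from the sample titles. Per the submitters' processing notes, Bowtie 1.1.0 and the builds GRCm38 and mm10 were used. The labels name neither the miRNA caller nor its filters. The deposited values were whole read counts per entry. The authors' TPM columns were the counts divided by the column total and rescaled, within 0.001, and were not used further. The authors' p-values are quoted as theirs. The members and lists were chosen with earlier results of these data known.

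Counts were scaled with TMM of edgeR 4.0.16 in R 4.3.3 (factors 1.79 for BPA and 0.558 for control). Ratios had 0.5 reads added on average, divided in proportion to scaled library size, as edgeR does, and needed 10 reads over both libraries. Intervals are exact (Clopper-Pearson, SciPy 1.17.1, 95%) and hold the scaling as exact. For a count of 0, a fold used 3 counts per library in its place, taking the other count as exact. The procedure was tested on simulated data. Entries were named as the 2 markers 11_16688 and 4_5085, the 10 with most reads, up to 10 per direction at least 2-fold apart with an interval excluding equality, up to 5 per library seen there alone, 3 on each side of the filter, and neighbours in number. Star entries, their partners and 18_23878 were named after their values were seen. Alternatives were CPM, totals without miR-148a-3p, DESeq2 1.42.0 size factors, TMM on named entries, other filters and 5 added reads.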

Additional observations from a re-analysis of the deposited data

How the results depend on the processing

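No paired analysis was possible because each group had 1 library, and no library could be left out. TMM computed on named entries alone, DESeq2 size factors and 0.5 reads added to each library alike (the last chosen after seeing the data) kept the counts of higher and lower unnamed entries and their median close, at 8, 25 to 26 and -0.71 to -0.64. Of 30 entries named with a ratio, all stayed within their counting interval under these 3. By CPM, 29 were higher and 10 lower, and the median was 0.97. Of the 30 named entries, 20 moved out of their counting interval under CPM. Some of these changed sign within 2-fold, such as 4_6517 to 0.95 and 13_18726_star to 0.97. Besides these 20, 8_11641, at least 2-fold lower by TMM, turned to 0.33. With miR-148a-3p out of the totals, 14 were higher and 18 lower, and the median was -0.16. With at least 50 reads, 3 were higher and 6 lower of 18, and the median was -0.32. With no filter, 71 were higher and 82 lower of 205, and the median was -0.25. With 5 reads added the median was -0.56. These shifts by CPM and by leaving out miR-148a-3p follow from the totals, and the filters change which entries are counted.

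The unnamed share of reads was 0.342% in BPA and 0.260% in control with miR-148a-3p out of the totals. It was 0.0751% in BPA and 0.0358% in control without 3_4438, 3_4539 and 11_16688, and with miR-148a-3p out of the totals too the direction turned, to 0.116% in BPA (0.111 to 0.120) and 0.121% in control (0.115 to 0.128), with overlapping intervals. Without 11_16688, the pair 3_4438 and 3_4539 made up 64.8% of the unnamed reads in BPA and 34.2% in control. The alternatives that leave out unnamed entries were chosen after seeing the data. With 1 library per group, neither the spread between cultures nor the error of the scaling could be measured.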

Other observations

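The unnamed and named entries differed at the lowest counts. Unnamed entries most often had exactly 3 reads over both libraries, in 35 of 205 (17.1%), against 32 of 726 named entries (4.41%). A single read was found for 13 unnamed entries (6.34%) and 113 named ones (15.6%). Of the unnamed entries seen in 1 library, 19 of 63 in BPA alone and 11 of 33 in control alone had exactly 3 reads. The labels do not state which filters the authors' caller applied, and their part in this was not tested.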
